A study of Bos taurus with 34 samples.

Results

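The subunits of the oxidative phosphorylation machinery were followed in RNA from the lining of the oviduct and uterus of cattle. Members were chosen by name: the 13 protein rows of the mitochondrial genome, and the nuclear genes whose symbols mark subunits of complexes I to V, without assembly factors and pseudogenes. A gene with several rows in the count table is represented by the one of highest mean count. That gave 86 members, 13 mitochondrial and 73 nuclear, among 21554 genes matched in the table. A further 15 nuclear subunit genes known to RefSeq had no row: ATP5ME, ATP5PF, COX5A, COX8C, CYC1, NDUFA1, NDUFA10, NDUFA8, NDUFC1, NDUFS7, NDUFV3, SDHA, UQCR10, UQCRC1 and UQCRC2.

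The samples came from 5 adult Holstein heifers that had not calved, numbered 10872, 10882, 11033, 11070 and 11110, in which ovulation had been timed with a CIDR progesterone insert and which were slaughtered on day 2 after ovulation. Tissue was taken from the ampulla (the wide part of the oviduct), from the upper and the mid uterine horn, each on the side of ovulation (ipsilateral) and on the other side (contralateral), and from the uterine body, sequenced once per animal. These are 7 groups of 5 libraries, except the ipsilateral upper horn with 4, 34 libraries in all. All groups share the animals, the synchronisation and the day, so no group stands for another stage of the cycle or for an animal without the insert.

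Oxidative phosphorylation is the part of metabolism in which electrons from nutrients pass along the inner mitochondrial membrane to oxygen while protons are pumped out, and the returning protons drive ATP synthesis. Complex I takes electrons from NADH, complex II from succinate, complex III passes them to cytochrome c, complex IV reduces oxygen, and complex V is the ATP synthase. The mitochondrial genome codes for core subunits of complexes I, III, IV and V, and the nucleus for the rest, including all of complex II. In the oviduct, the ciliated and secretory epithelial cells that move and feed gametes and early embryos are users of this ATP.

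Depth ran from 11619486 to 30412782 counts per library. Levels are counts relative to library size (CPM), scaled by the TMM method, which sets libraries on a common footing. They compare 1 row between libraries, and they do not compare different genes, since no gene lengths of the annotation used were at hand. The features are mostly single transcripts, and genes with several transcripts were counted low: 19 of 27 nuclear members with 2 or more RefSeq transcripts averaged under 1 CPM, against 4 of 46 with 1 transcript. The row of COX4I1, a core part of complex IV in most tissues, held 179 counts in all libraries together, so the level of a row need not be the level of its gene. Of the 73 nuclear members, 59 passed the filter on low counts and were tested, as were the 13 mitochondrial ones. The 14 that were not tested were ATP5MC2, COX4I2, COX6A2, COX6B1, COX6B2, COX8B, NDUFA5, NDUFA6, NDUFB3, NDUFB8, NDUFS1, NDUFS4, NDUFV2 and SDHD.

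Marker genes separated the labelled tissues. Ciliated cell markers summed to between 1729 and 2466 CPM in the 10 ampulla libraries and to between 117 and 616 CPM in the 24 uterine ones, with 7 of 8 tested higher in the ampulla and 0 lower. General epithelium markers ran from 5553 to 7410 and from 933 to 4023 CPM, with 5 of 7 higher in the ampulla, CLDN4 lower (log2 -1.59 ± 0.22) and CDH1 not called (log2 -0.67 ± 0.31). Stromal markers ran from 38.0 to 101 CPM in the ampulla and from 33783 to 78763 in the uterus, with DCN, LUM and PDGFRA at 0 counts in the ampulla. Endothelial markers stayed at or under 0.841 CPM in the ampulla and stood at 231 to 608 in the uterus. Secretory markers were higher in the ampulla in 3 of 3 tested, and smooth muscle, pericyte and leukocyte markers lower in 5 of 5, 5 of 5 and 3 of 3. The ampulla libraries thus held little stromal and endothelial marker RNA, and the uterine ones held much. In bulk tissue, fewer cells of a type and less RNA per cell cannot be told apart, and the part of cell make-up in the differences below was not tested. Libraries that stand apart are 3 that carried few features or transcripts of another site (contralateral mid horn of 10882, contralateral upper horn of 11033, contralateral ampulla of 11070) and 3 rich in nuclear ribosomal RNA (body of 11033, contralateral upper horn of 10882, contralateral ampulla of 11110, at 11.2% to 23.6% of counts).

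Taken by genome, the ampulla carried less mitochondrial and more nuclear subunit RNA than the uterus. The 13 mitochondrial subunits took 2.696% ± 1.36 (SD, n = 5 heifers) of counts in the ampulla and 4.05% ± 0.240 in the endometrium, where upper horn, mid horn and body had equal weight. The 73 nuclear rows took 0.893% ± 0.0550 and 0.670% ± 0.105. The nuclear share was higher in the ampulla in each of the 5 heifers, by 1.02 times in 10872 and by 1.38 to 1.57 times in the other 4. With ribosomal and mitochondrial rows out of the denominator it was lower in 10872, at 0.874% against 0.888%, and so higher in 4 of 5. The mitochondrial share was lower in 4 heifers, at 0.315 to 0.737 times the endometrial one, and higher in 11070, at 1.24 times.

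The ratio of mitochondrial to nuclear subunit counts needs no scaling between libraries. It was 3.02 ± 1.43 in the ampulla and 6.19 ± 0.824 in the endometrium (n = 5), and lower in the ampulla in 5 of 5 heifers. By heifer it went from 5.01 in the endometrium to 1.54 in the ampulla in 10872, from 7.15 to 3.07 in 10882, from 6.50 to 1.83 in 11033, from 5.74 to 5.10 in 11070 and from 6.54 to 3.54 in 11110. Heifer 11070 thus showed little of the gap. Its uterine body, at 3.34, was the lowest uterine library, and its contralateral ampulla, at 5.33, the highest ampulla library. Ampulla libraries ran from 1.48 to 5.33 and uterine ones from 3.34 to 9.34, so the ranges overlapped. No p is given for these sums.

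Within the uterus the group means of the mitochondrial share were 4.08% ± 0.569 (n = 4) and 4.54% ± 2.39 (n = 5) in the ipsilateral and contralateral upper horn. They were 3.97% ± 0.573 and 4.69% ± 0.926 in the mid horn and 3.55% ± 1.36 in the body (n = 5 each). The nuclear share was 0.676% ± 0.161 and 0.698% ± 0.238 in the upper horn, 0.741% ± 0.0935 and 0.805% ± 0.0916 in the mid horn and 0.561% ± 0.190 in the body. In the ampulla it was 0.869% ± 0.111 ipsilaterally and 0.918% ± 0.162 contralaterally. In both genomes the gaps between the sides were smaller than the SD of the contralateral group. In the mid horn the mitochondrial gap was larger than the ipsilateral SD of 0.573. These SDs are over heifers and leave aside that both sides come from the same animals.

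**Figure D1:**
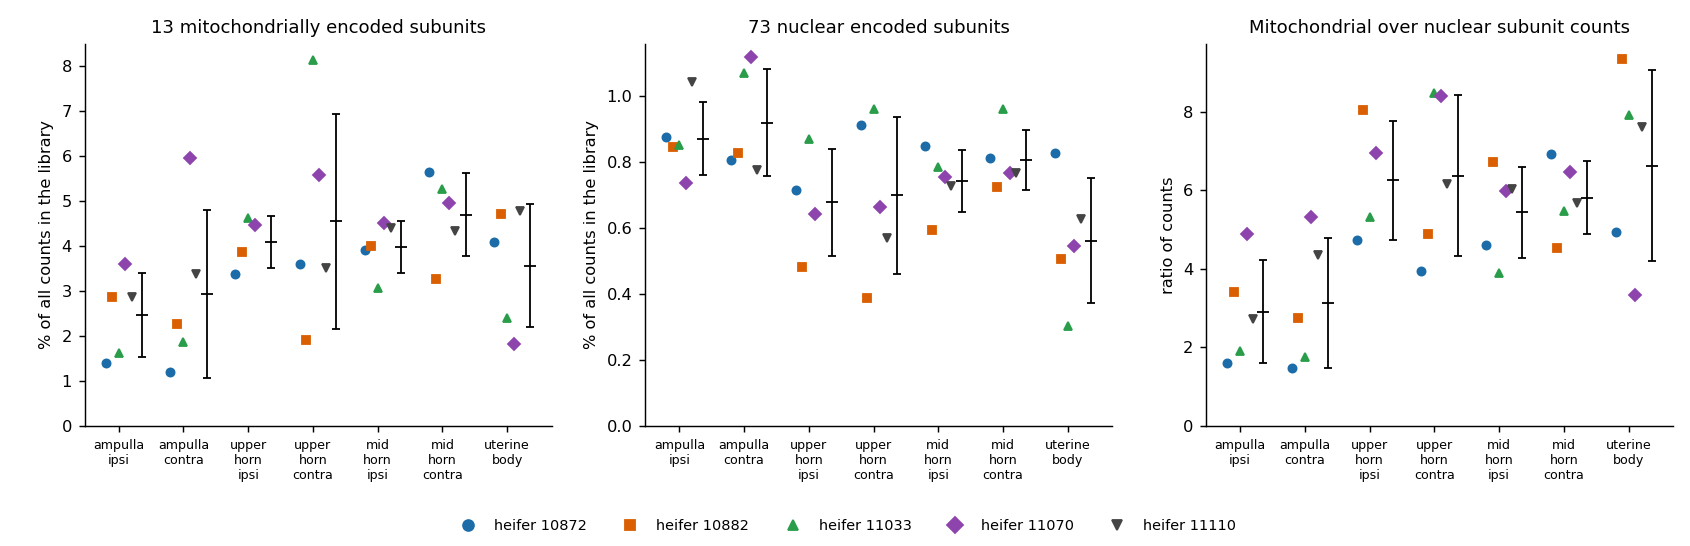
Share of all counts taken by the mitochondrial and the nuclear subunits (%), and their ratio, in each of the 34 libraries by group (ipsi, ipsilateral; contra, contralateral); symbols mark heifers and bars the mean ± SD of the group. Ampulla libraries lie between 1.48 and 5.33 on the ratio and uterine libraries between 3.34 and 9.34.

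Between ampulla and endometrium, 11 of the 13 mitochondrial estimates lay below 0, but most of the rows were not called. In the edgeR quasi-likelihood fit with group and heifer as terms, 64.9% of the 17241 features tested were called at an adjusted p under 0.05, with 29.4% higher and 35.6% lower in the ampulla and a median log2 fold change of -0.18. Of the 13 mitochondrial subunits, 0 were higher, 4 were lower and 9 were not called, with a median of -0.41. The 4 lower ones are also the only ones at an unadjusted p under 0.05, and DESeq2 called 0 higher and 6 lower.

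ND5, the proton-pumping core subunit of complex I at the end of the membrane arm, had the lowest mitochondrial estimate. Its level ran from 127 to 665 CPM, with a median of 276, in the 10 ampulla libraries and from 267 to 1332, with a median of 594, in the 24 uterine ones. In 10 uterine libraries it lay above every ampulla library. By heifer it was lower in the ampulla in 4 of 5, at 176 against 447 CPM in 10872, 285 against 1005 in 10882, 232 against 699.6 in 11033 and 477 against 700.1 in 11070, while 11110 had 553 against 510.3. The log2 fold change was -1.03 ± 0.23 (SE, edgeR adjusted p = 0.000249).

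ND6, also of complex I and the one subunit coded on the other strand of the mitochondrial genome, gave -0.88 ± 0.33 (edgeR adjusted p = 0.0208), with 32.3 to 321 CPM in the ampulla and 52.8 to 430 in the uterus. Its direction held in 3 of 5 heifers. Strand handling in the counting is not given in the sources used here, so reads of ND6 and antisense reads at its place cannot be told apart. ND4L, a small membrane subunit of complex I, gave -0.65 ± 0.20 (edgeR adjusted p = 0.00616) and was lower in 5 of 5 heifers, the only mitochondrial row to be so. It ran from 18.7 to 94.6 CPM in the ampulla and from 25.5 to 147 in the uterus.

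COX1, the catalytic subunit of complex IV, carried more counts than any other member. Its level was 12393 ± 4195 CPM in ampulla and 16837 ± 2342 CPM in endometrium (SD, n = 5), a log2 fold change of -0.47 ± 0.18 (edgeR adjusted p = 0.0233). Ampulla levels were 6559 CPM in 10872, 13402 in 10882, 10042 in 11033, 14551 in 11070 and 17409 in 11110. Only the first 3 of these heifers were lower than in their endometrium, at 20397, 16952 and 16959 CPM, while the other two had 13934 and 15943. COX1 and ND6 lost their call without heifer 10872 and without 11033, ND6 also without 10882, and ND4L without 11033. That left 2 mitochondrial calls without 10872, 3 without 10882 and 1 without 11033. Without 11070 there were 10, and without the 3 libraries that stand apart by features there were 9.

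The other mitochondrial rows were not called, each with ranges that overlapped between ampulla and uterus. In complex I, ND2 gave -0.49 ± 0.28, ND1 -0.41 ± 0.24, ND4 -0.41 ± 0.25 and ND3 0.15 ± 0.26. CYTB, the mitochondrial core of complex III, gave -0.32 ± 0.26. COX3 and COX2 of complex IV gave -0.36 ± 0.23 and 0.28 ± 0.24. ATP8 and ATP6, which anchor the proton channel of complex V, gave -0.40 ± 0.27 and -0.18 ± 0.28. The edgeR adjusted p of these 9 ran from 0.128 for ND2 to 0.628 for ND3.

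The make-up of the mitochondrial counts needs no scaling between libraries either. COX2, which takes electrons from cytochrome c in complex IV, made up 8.11% ± 1.39 of the 13 rows' counts in the ampulla and 5.33% ± 0.404 in the endometrium, and more in the ampulla in 5 of 5 heifers. ND3, of the complex I hinge, made up 3.97% ± 0.469 and 2.80% ± 0.556, also more in 5 of 5. ND5 made up 1.13% ± 0.166 and 1.86% ± 0.602 and was less in 4 of 5. COX1 held 42.9% ± 4.83 in the ampulla and 45.8% ± 3.92 in the endometrium, with 3 heifers lower. So within the mitochondrial RNA the weight lay more on COX2 and ND3 and less on ND5 in the ampulla. Both mitochondrial ribosomal RNA rows were not called, at -0.50 ± 0.36 (edgeR adjusted p = 0.229) and 0.18 ± 0.48 (0.751).

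**Figure D2:**
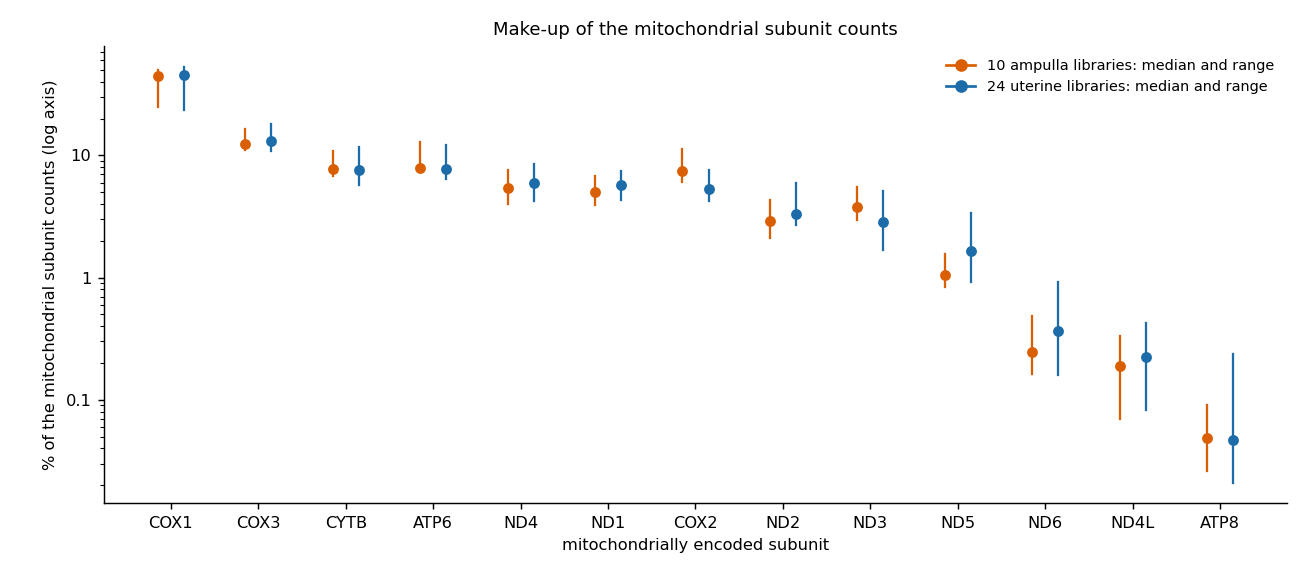
Percent of the mitochondrial subunit counts held by each of the 13 rows (log axis), as the median (point) and the range (line) of the 10 ampulla and the 24 uterine libraries. COX1 holds 24.7% to 50.5% in the ampulla and 23.4% to 53.4% in the uterus, and the ampulla medians of COX2 and ND3 lie above the uterine ones.

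Nuclear subunits went the other way. Of the 59 tested, 39 were higher in the ampulla, 7 were lower and 13 were not called, against 29.4% higher and 35.6% lower over all features. Their median log2 fold change was 0.62 beside -0.18 over all features. In 30 of the 59 tested the ampulla was higher in each of the 5 heifers, and in 9 it was lower in each. The share of all features that agree so was not computed, so these counts do not set the subunits apart. Differences were mostly small: 9 of the 39 reached a log2 fold change of 1. Of the 2 members whose ampulla and uterine libraries did not overlap, ATP5PB was higher and NDUFA4L2 lower, where 5.12% of all features had such a gap upward and 6.54% one downward. Of the genes with 1 RefSeq transcript, 36 of 43 tested were higher and 2 lower, with a median of 0.76. Of those with 2 or more, 3 of 16 were higher and 5 lower, with a median of -0.06.

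**Figure D3:**
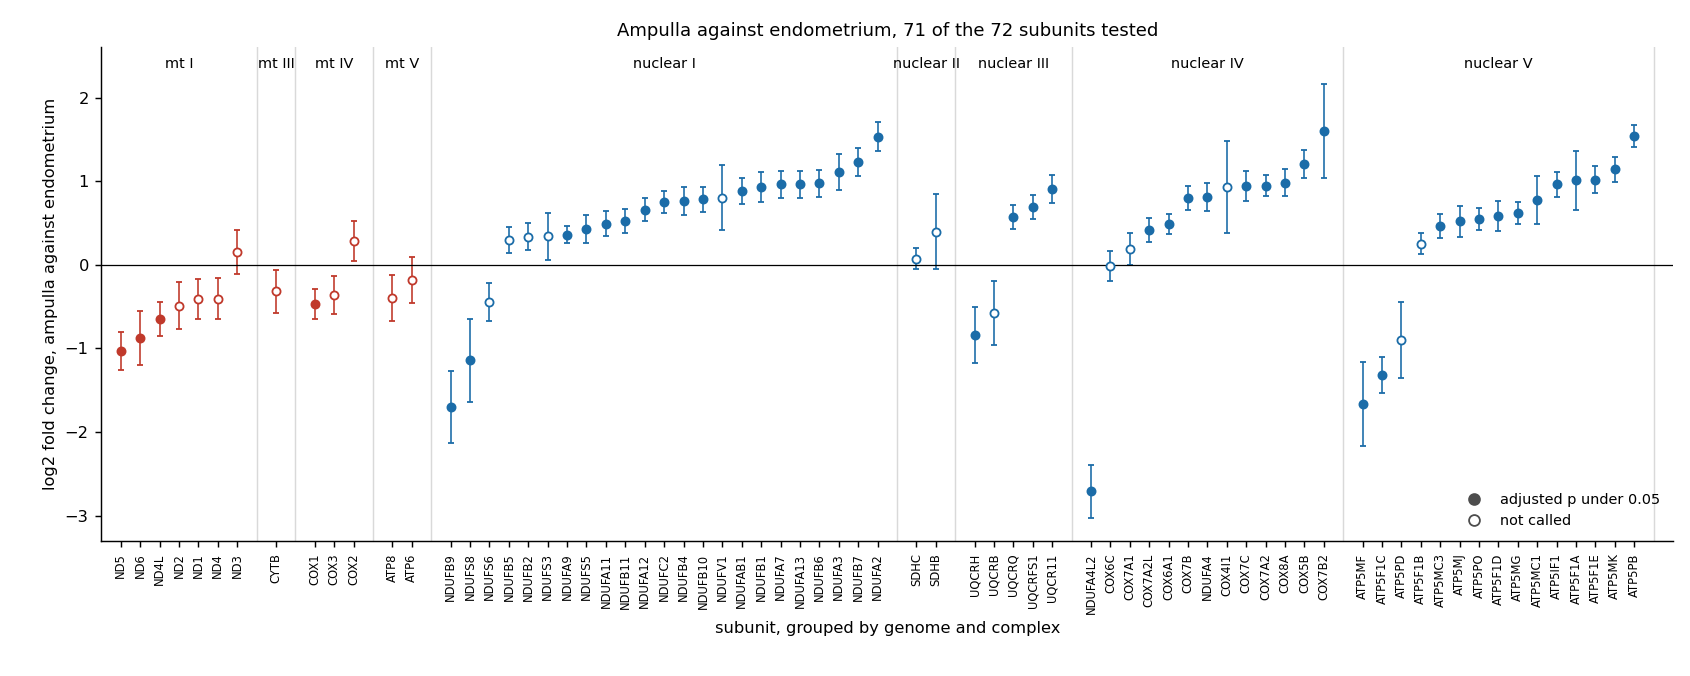
Log2 fold change of the ampulla against the endometrium for 71 of the 72 tested subunits by genome and complex; points are edgeR estimates with their SE, and filled points have an adjusted p under 0.05. Of these, 4 mitochondrial points are filled and lie below 0, and 39 nuclear ones are filled above 0.

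Complex I had 31 nuclear members, of which 24 were tested, 16 were higher in the ampulla, 3 were lower and 5 were not called. NDUFA2, a small subunit of the arm that reaches into the matrix, ran from 32.0 to 178 CPM with a median of 61.0 in the ampulla and from 11.1 to 47.8 with a median of 25.1 in the uterus. It lay at 1.53 ± 0.18 (edgeR adjusted p = 5.00e-09) and was higher in 5 of 5 heifers, and 20 of the 24 uterine libraries were under the lowest ampulla library. NDUFB7, a subunit on the outer face, gave 201 ± 33.9 CPM against 87.6 ± 21.3 (log2 1.23 ± 0.17), and NDUFA3 gave 136 ± 28.5 against 67.4 ± 26.3 (log2 1.11 ± 0.21), also higher in 5 of 5. NDUFB10, with the most counts of the nuclear members of complex I, stood at 279 ± 64.1 CPM against 160 ± 31.7, a log2 fold change of 0.78 ± 0.15. NDUFAB1, which is also the mitochondrial acyl carrier protein, rose by 0.88 ± 0.15.

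Of the lower members of complex I, NDUFB9 and NDUFS8 rested on few counts. NDUFB9 held 65 counts in the 10 ampulla libraries and 504 in the 24 uterine ones, a log2 fold change of -1.70 ± 0.43 (edgeR adjusted p = 0.000895). NDUFS8, which carries iron-sulfur clusters, held 20 and 137 counts and gave -1.14 ± 0.50 (edgeR adjusted p = 0.0371), a call lost without heifer 10882, without 11070, and without either set of 3 libraries that stand apart. These genes have 3 and 4 RefSeq transcripts, and the rows give 1 transcript each. Of the untested NDUFB8, a gene with 2 RefSeq transcripts, there were 0 counts in the ampulla and 17 in the uterus. The endometrial mean was 2.18 times a floor of 3 counts over the ampulla libraries. That leaves out the counting error of the uterine side, so the fold may be smaller.

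Complex II, which also serves the citric acid cycle, had no call. SDHC, a membrane anchor, had 149 ± 38.1 CPM in ampulla and 143 ± 40.2 CPM in endometrium (log2 0.07 ± 0.13, edgeR adjusted p = 0.628), with 75.7 to 219 CPM and 81.9 to 236 CPM over libraries. SDHB, the iron-sulfur subunit, was at 0.682 ± 0.408 and 0.462 ± 0.0767 CPM (log2 0.40 ± 0.45, edgeR adjusted p = 0.44). SDHD, the other anchor, had 0 counts in the ampulla and 6 in the uterus and was not tested. An SE of 0.13 on SDHC leaves room for a small difference.

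Complex III had 5 nuclear members, all tested, 3 higher in the ampulla and 1 lower. UQCR11, a small subunit, ran from 62.6 to 181 CPM in the ampulla and from 33.1 to 135 in the uterus and gave 0.91 ± 0.17 (edgeR adjusted p = 2.12e-05). UQCRFS1, the Rieske iron-sulfur protein, which passes electrons on to cytochrome c1, ran from 106 to 322 and from 60.9 to 188 CPM and gave 0.69 ± 0.14 (edgeR adjusted p = 0.000105). Both were higher in 5 of 5 heifers. UQCRQ gave 0.57 ± 0.15 (edgeR adjusted p = 0.000976) and was higher in 4. UQCRH, the acidic hinge protein, was lower in 5 of 5 heifers at 0.899 ± 0.335 CPM against 1.66 ± 0.514 (log2 -0.84 ± 0.33, edgeR adjusted p = 0.0257). That call was lost without 10872, without 11033, without 11110 and without the 3 libraries that carried few features or transcripts of another site. UQCRB gave -0.58 ± 0.38 at 1.26 ± 0.600 and 1.97 ± 0.497 CPM and was not called (edgeR adjusted p = 0.184). UQCRH and UQCRB have 2 and 3 RefSeq transcripts, and these low rows give 1 transcript each.

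Complex IV had 18 nuclear members, of which 13 were tested, 9 were higher, 1 was lower and 3 were not called. COX5B, which binds zinc and has the most counts of the nuclear members of complex IV, ran from 392.1 to 1450 CPM with a median of 745 in the ampulla and from 175 to 978 with a median of 400 in the uterus. By heifer the ampulla and the endometrium stood at 741 and 470 CPM in 10872, 629 and 321 in 10882, 923 and 489 in 11033, 921 and 301 in 11070 and 987 and 299 in 11110. It was higher in the ampulla in 5 of 5, at a log2 fold change of 1.20 ± 0.17 (edgeR adjusted p = 2.25e-07). The ranges overlapped: 11 of 24 uterine libraries were under the lowest ampulla one.

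NDUFA4L2 stood apart from every other member of complex IV. It is a paralogue of NDUFA4, a complex IV subunit once placed in complex I, and is known as a gene induced in low oxygen through HIF-1. In 10872 NDUFA4L2 had 0.892 CPM in ampulla and 5.76 in endometrium. The same pair of levels was 1.22 and 6.69 in 10882, 2.02 and 11.2 in 11033, 1.26 and 8.005 in 11070 and 0.807 and 7.31 in 11110. The highest ampulla library, at 3.05 CPM, lay below the lowest uterine one, at 3.28. The log2 fold change was -2.71 ± 0.32 (edgeR adjusted p = 7.31e-09). NDUFA4 itself rose by 0.81 ± 0.17 (edgeR adjusted p = 9.94e-05), at 239 ± 72.98 CPM against 137 ± 37.5, and was higher in the ampulla in 5 of 5 heifers. Pericyte markers, which summed to between 55.3 and 383 CPM in the ampulla and to between 468 and 1742 in the uterus, lay on the side of NDUFA4L2, as did EPAS1, the gene of HIF-2 alpha (log2 -4.32 ± 0.33, edgeR adjusted p = 9.09e-13). The part of either in the NDUFA4L2 difference was not tested.

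Complex IV is known for subunits with forms of the heart and muscle, of the lung or of the testis. Of the pair COX7A1, the muscle form, and COX7A2, the common form, the muscle form did not change detectably, at 27.6 ± 3.25 CPM against 24.2 ± 5.28 (log2 0.19 ± 0.19, edgeR adjusted p = 0.389). COX7A2 rose by 0.95 ± 0.13 (edgeR adjusted p = 1.21e-07), at 308 ± 81.1 against 163 ± 42.6 CPM, in 5 of 5 heifers. COX7A2L, which links complexes III and IV into supercomplexes, rose by 0.42 ± 0.14 (edgeR adjusted p = 0.0128), a call lost without the heifer block (edgeR adjusted p = 0.0503), without 11033 and without 11110. Of COX6A1 and its muscle form COX6A2, the first rose by 0.49 ± 0.12 at 504 ± 74.6 against 367 ± 76.0 CPM, and COX6A2 had 6 counts in the ampulla and 17 in the uterus. COX8A, the common form, rose by 0.98 ± 0.16, and COX8B, the muscle form, had 38 and 95 counts and was not tested. The rows of COX4I1, COX4I2, COX6B1 and COX6B2 held too few counts to compare forms, at 179, 2, 50 and 1 in all libraries, although COX4I1 was tested (log2 0.93 ± 0.55, edgeR adjusted p = 0.13).

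COX7B2, the form of COX7B known from testis, had the highest fold change of the nuclear subunits, 1.60 ± 0.56 (edgeR adjusted p = 0.0143), but 3 libraries carried it. They were the ipsilateral ampulla of 11110 at 37.6 CPM, the contralateral ampulla of 11033 at 36.0 and the contralateral ampulla of 11110 at 28.7. The other 7 ampulla libraries ran from 0 to 4.24 CPM and the uterine ones from 0 to 5.51. The call was lost without heifer 11033, without 11110 and in DESeq2. Heifer 11110 also had the highest uterine level, 4.14 CPM, and heifer 11070 had almost none in either tissue, at 0 and 0.240 CPM. COX7B rose by 0.80 ± 0.15 in 5 of 5 heifers. COX6C was at 224 ± 24.7 and 239 ± 68.9 CPM and was not called (log2 -0.02 ± 0.18, edgeR adjusted p = 0.947).

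Complex V had 16 nuclear members, of which 15 were tested, 11 were higher, 2 were lower and 2 were not called. ATP5PB, a part of the stalk that holds the catalytic head still, was the member with the lowest p. In 10872 ATP5PB had 784 CPM in ampulla and 417 in endometrium. The same pair of levels was 830 and 325 in 10882, 1238 and 327 in 11033, 698 and 245 in 11070 and 873 and 238 in 11110. Its ampulla libraries ran from 592 to 1475 CPM and its uterine ones from 162 to 486, with no overlap. The log2 fold change was 1.54 ± 0.13 (edgeR adjusted p = 6.92e-12), or 2.91-fold.

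Other risers of the ATP synthase included subunits of the membrane part and of the central stalk. ATP5MK, a small subunit of the membrane part, rose by 1.14 ± 0.14 (edgeR adjusted p = 3.76e-08) to 285 ± 61.8 CPM from 133 ± 36.3, and ATP5F1E, of the central stalk, rose by 1.02 ± 0.17 to 269 ± 59.1 from 135 ± 37.7. ATP5IF1, the inhibitor that stops the synthase from running backwards and no subunit itself, rose by 0.96 ± 0.15. Of the catalytic head, ATP5F1B, with the most counts of the members of the ATP synthase after ATP6, was at 651 ± 162 and 544 ± 93.8 CPM and was not called (log2 0.25 ± 0.12, edgeR adjusted p = 0.0655). ATP5F1A was called at 1.01 ± 0.35 (edgeR adjusted p = 0.0133), but on a row of 1.51 ± 1.20 against 0.722 ± 0.294 CPM, with 6.95 in the contralateral ampulla of 11070. Its call was lost without heifer 11070, and without the 3 libraries that carried few features or transcripts of another site. Of the 3 genes for the c-ring subunit, which turns as protons pass, ATP5MC3 rose by 0.47 ± 0.14 and ATP5MC1 by 0.77 ± 0.29, the latter at 1.44 ± 0.770 against 0.848 ± 0.224 CPM, and ATP5MC2 had 10 and 46 counts and was not tested. ATP5MC3 lost its call without 11110, and ATP5MC1 without 10872, without 10882 and without 11033.

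Of the lower members of complex V, ATP5F1C, the central shaft of the motor, had the more counts, 1738 in the ampulla and 11801 in the uterus. It was at 9.47 ± 4.45 CPM against 24.5 ± 8.52 and lower in the ampulla in 5 of 5 heifers (log2 -1.32 ± 0.21, edgeR adjusted p = 2.65e-06). The gene has 5 RefSeq transcripts and this row is 1 of them. ATP5MF, of the membrane part, had 20 and 180 counts (log2 -1.67 ± 0.50, edgeR adjusted p = 0.00348).

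**Figure D4:**
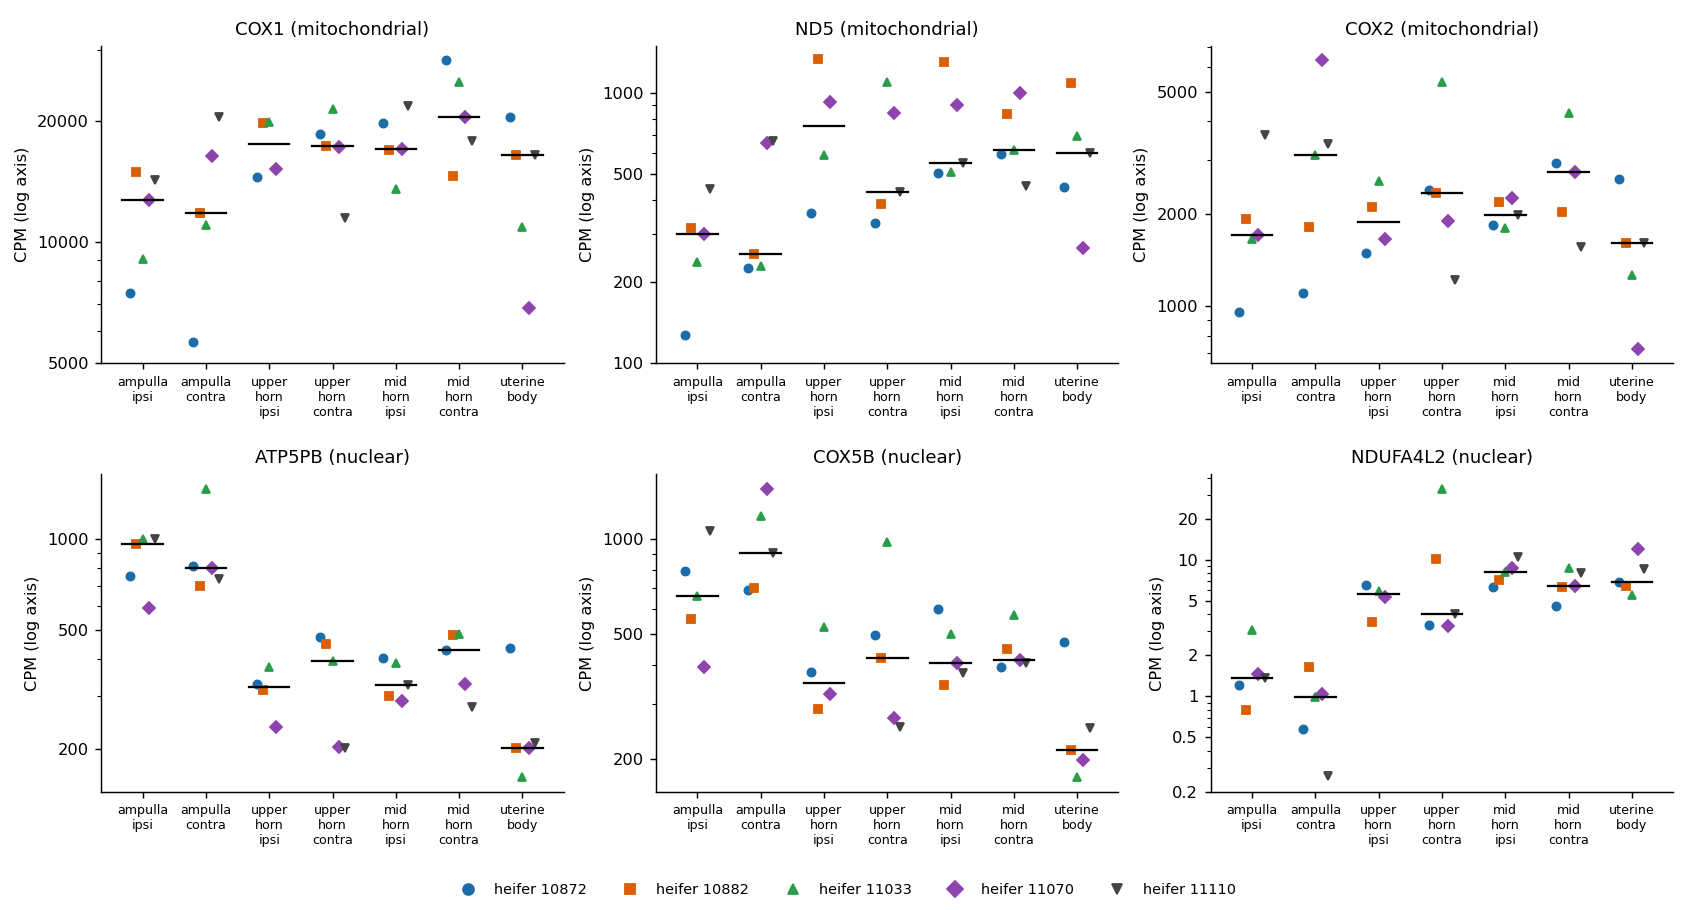
CPM (log axis) of 3 mitochondrial and 3 nuclear subunits in each of the 34 libraries by group; symbols mark heifers and lines the group medians. The ATP5PB ampulla libraries sit between 592 and 1475 CPM, all above the uterine ones, and the NDUFA4L2 ampulla libraries at or under 3.05 CPM, all below the uterine ones, while COX1, ND5, COX2 and COX5B overlap.

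Levels were also summed over complexes, as TMM-scaled CPM. The nuclear rows of complexes I, III, IV and V were each higher in the ampulla in 5 of 5 heifers. Their median ratios were 1.66, 1.65, 1.70 and 1.73. The rows of complex II gave 1.15, with 3 heifers higher and 2 lower. That sum was nearly all SDHC, since the SDHB and SDHD rows were low and SDHA had no row. The mitochondrial rows of complexes I, III, IV and V gave 0.627, 0.729, 0.773 and 0.750, each with 3 heifers lower and 2 higher. Directions by heifer depended on the scaling. As shares of counts without it, the mitochondrial rows of 11110, higher in these sums, were at 0.737 times the endometrial share. The nuclear rows of 10872 were then at 1.02 times.

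Other genes of mitochondrial metabolism were read from lists, whose counts stand beside 29.4% of all features higher and 35.6% lower in the ampulla. Of 11 complex I assembly factors tested, 5 were higher in the ampulla and 0 lower, with a median of -0.05. NDUFAF2 rose by 1.64 ± 0.21 from 1.14 ± 0.282 to 3.37 ± 0.892 CPM. Of 28 assembly factors of the other complexes, 12 were higher and 2 lower (median 0.32), with PET100 at 1.37 ± 0.18, UQCC2 at 1.10 ± 0.15 and BCS1L, which inserts the Rieske protein, at -1.51 ± 0.37. Of 53 mitochondrial ribosomal proteins, 35 were higher and 6 lower (median 0.47), with MRPL38 at 1.73 ± 0.11, MRPL57 at 1.39 ± 0.23, MRPL14 at -2.08 ± 0.38 and MRPL21 at -1.71 ± 0.52. The rows of MRPL14 and MRPL21 were low, at 0.604 CPM in ampulla against 2.601 in endometrium and 0.143 against 0.433. That of BCS1L was low too, at 0.2496 against 0.694 CPM. Such rows need not give the level of these genes. Of 16 electron carriers and nucleotide exchangers, 8 were higher and 1 lower (median 0.40). UCP2, an inner membrane carrier, rose by 1.41 ± 0.17 to 1189.6 ± 395 CPM, and SLC25A5 and SLC25A4, which swap ADP for ATP, rose by 1.18 ± 0.17 and 1.05 ± 0.12. SLC25A3, the phosphate carrier, fell by 1.36 on the log2 scale at 0.577 ± 0.205 against 1.61 ± 0.626 CPM.

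Of 14 genes tested that keep and read the mitochondrial genome, 3 were higher and 2 lower, with a median of 0.03. HSD17B10, a part of the enzyme that trims mitochondrial transfer RNA, rose by 1.39 ± 0.14 and SLIRP, which binds and steadies mitochondrial messenger RNA with LRPPRC, by 1.07 ± 0.19, while LRPPRC rose by 0.46 ± 0.12. TWNK, the mitochondrial helicase, fell by 0.80 on the log2 scale. Of 17 genes of the citric acid cycle and pyruvate entry, 6 were higher and 2 lower (median 0.15). SUCLG1 and DLAT rose by 0.99 ± 0.13 and 0.78 ± 0.10, and PDK4, which shuts pyruvate dehydrogenase, gave -2.55 ± 0.25. Of 13 glycolytic genes 7 were higher and 2 lower (median 0.65), with GAPDH at 1.66 ± 0.14 and 2852 ± 457 against 907 ± 105 CPM. The lower ones were ENO2 at -2.97 ± 0.82 and PKM at -1.88 ± 0.39. Their rows were low, at 0.0609 against 0.550 CPM and 0.867 against 2.88 CPM, and need not give the level of these genes. Of 16 genes of import and membrane shape 7 were higher and 0 lower (median 0.29), with MICOS13 at 3.52 ± 0.21 and TIMM23 at 1.23 ± 0.16. Of 6 biogenesis regulators 2 were higher and 2 lower (median -0.22), SIRT3 at 1.304 ± 0.29 and NFE2L2 at -1.93 ± 0.39. Both rows were low, SIRT3 at 2.40 against 0.915 CPM and NFE2L2 at 0.732 against 2.85 CPM.

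The sides of the tract asked whether the ovulatory side differs in its subunit RNA on day 2. In edgeR 0 of 72 members were called in the ampulla, where 0.0174% of features were, 0 in the upper horn (0.0058%) and 0 in the mid horn (0.0%). At an unadjusted p under 0.05 there were 1 mitochondrial and 7 nuclear members in the ampulla, 2 and 0 in the upper horn and 0 and 0 in the mid horn. Over all features such values made up 7.25%, 6.89% and 2.98%. DESeq2 called 0 members in each. In the ampulla, 12 of 13 mitochondrial and 47 of 59 nuclear estimates lay below 0, toward the contralateral side, with medians of -0.70 and -0.31 beside 0.06 over all features. The mitochondrial estimates there reached -0.92 ± 0.43 for ND3 (edgeR adjusted p = 0.682). The contralateral ampulla held the library of 11070 with 3665 CPM of ND3, against 717, 1045, 1293 and 1590 CPM in the other 4, while the ipsilateral ones ran from 601 to 1152. The lean lay the same way in the upper horn, with 9 of 13 mitochondrial and 47 of 59 nuclear estimates below 0. Medians there were -0.34 and -0.21 beside -0.04 over all features. Against that lean, ATP8 stood at 0.95 ± 0.46 (edgeR adjusted p = 0.723) and ND4L at 0.75 ± 0.34 (edgeR adjusted p = 0.706), toward the ipsilateral side. In the mid horn 11 of 13 and 49 of 59 lay below 0, with medians of -0.18 and -0.09 beside -0.02. Each of these contralateral groups held 1 of the 3 libraries with few features or transcripts of another site. In the upper horn it was that of 11033, with 8.13% mitochondrial counts against a group median of 3.596%. The ipsilateral upper horn had 4 libraries. The part of these libraries in the lean was not tested. The side difference itself differed between sites for 0 members in 3 edgeR interaction tests, where 0.0% of features were called.

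Along the uterus, the mid horn and the body differed in 5 nuclear members, and 0 members were called between the upper horn and either. Between mid horn and body 4.45% of features were called, 0.528% higher and 3.92% lower in the mid horn. Of the 59 nuclear members tested 3 were higher in the mid horn and 2 lower, and of the 13 mitochondrial ones 0 and 0. At an unadjusted p under 0.05 there were 42 nuclear and 0 mitochondrial members, beside 28.0% of all features, and DESeq2 called 14 nuclear members higher and 2 lower and 0 mitochondrial ones. Over all features DESeq2 called 2714 of 17241.

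COX6A1, a small subunit of complex IV, was at 495, 397, 497, 392.1 and 441 CPM in the mid horn of heifers 10872, 10882, 11033, 11070 and 11110, and at 490.1, 224, 176, 231 and 258 in the body (log2 0.71 ± 0.18, edgeR adjusted p = 0.0408). COX7A2 was at 241, 157, 242, 181 and 190.1 CPM in the mid horn and at 223, 91.3, 84.5, 91.8 and 111 in the body (log2 0.76 ± 0.20, edgeR adjusted p = 0.0408). ATP5MK gave 181, 127, 200, 150.1 and 137 CPM and 184, 71.8, 61.7, 61.6 and 95.8 (log2 0.77 ± 0.22, edgeR adjusted p = 0.0463). In these 3 genes heifer 10872 had nearly equal levels at both sites, and the other 4 had clearly less in the body.

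ATP5F1C went the other way, at 12.2, 17.6, 9.39, 22.0 and 24.9 CPM in the mid horn and 13.03, 38.8, 37.5, 40.8 and 36.8 in the body (log2 -1.04 ± 0.28, edgeR adjusted p = 0.0408), lower in 5 of 5 heifers. ATP5PD, of the stalk, was at or under 0.243 CPM in the mid horn of each heifer and between 0.310 and 0.731 in the body (log2 -2.11 ± 0.57, edgeR adjusted p = 0.0408). That row rested on few counts, 149 in all uterine libraries together, and the gene has 3 RefSeq transcripts. Over the 59 nuclear members, these 5 included, 48 estimates lay above 0 and 11 below, with a median of 0.59 beside -0.06 over all features.

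These 5 calls rested on the heifer block and on single animals. None was left without the block, without heifer 10882, without 11033, without 11070 or without the 3 libraries rich in ribosomal RNA, while without 10872 there were 32 higher and 2 lower, and without 11110 7 and 2. The calls over all features, 767 in the main fit, fell to between 0 and 2 in the fits where none was left. They were 1835 of 17486 features without 10872 and 1045 of 16673 without 11110. The body library of 11033 held 23.6% nuclear ribosomal RNA, and the bodies of the other 4 heifers 0.709% to 4.21%. General epithelium markers summed to between 1921 and 4023 CPM in the mid horn and to between 933 and 3412 in the body, with 3 of 7 called higher in the mid horn. The part of either in the calls was not tested.

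**Figure D5:**
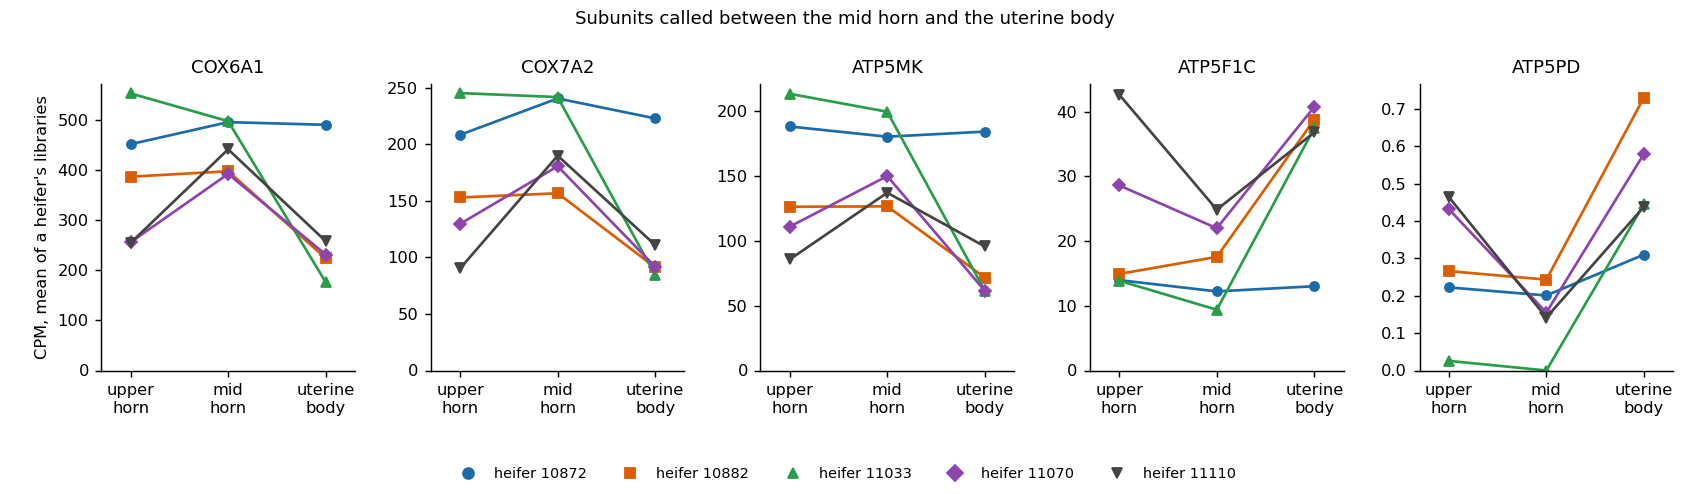
CPM of the 5 subunits called between mid horn and body, as the mean of a heifer's libraries at the upper horn, mid horn and body; symbols and lines mark heifers. Heifer 10872 is flat in COX6A1, COX7A2 and ATP5MK, and the body values of the other 4 lie below their mid horn values.

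For the upper horn 0 members were called against the mid horn (0.0174% of features, 0.0116% higher in the upper horn) and 0 against the body (0.0232%) in edgeR, and 0 in DESeq2. Against the mid horn 2 nuclear members had an unadjusted p under 0.05, as had 6.08% of all features. They were COX7B2, at 1.60 ± 0.74 (edgeR adjusted p = 0.79), and ATP5F1B, at -0.38 ± 0.15 (edgeR adjusted p = 0.787). Against the body there were 23 nuclear ones, beside 11.2% of all features, with all 13 mitochondrial estimates above 0, between 0.14 and 0.69, and a nuclear median of 0.44 beside -0.06 over all features. The comparisons of upper and mid horn with the body share the body libraries.

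Across the 7 groups at once, the edgeR F test called 44 of the 59 nuclear and 1 of the 13 mitochondrial members, ND5, where 53.4% of features were called. Over the 5 uterine groups it called 0 members, where 0.0406% of features were. At an unadjusted p under 0.05 there were 11 nuclear and 0 mitochondrial ones, beside 13.5% of all features, in that test, which was not run in DESeq2.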

How the data were processed

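RNA-seq of 34 libraries was analysed. The authors deposited 1 table of raw read counts for 38568 features, which the file itself shows to be whole numbers. The submitters' processing notes name cutadapt, STAR 2.7.9a, HTSeq and SAMtools. What each did, and which build, annotation, strand option and counting mode were used, is not given in the sources used here. Per the labels' protocols, tissue was homogenised with beads, RNA came from a column kit and libraries from a directional kit.

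Features were matched by accession or locus tag to symbols of the ARS-UCD2.0 RefSeq table, used for names only: 26362 features matched, holding 95.3% of counts. For a gene with several features the one with the highest mean count was kept, which touched 12 nuclear members. Members and lists were chosen with earlier results of these data known.

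Counts were fitted with edgeR 4.0.16 (R 4.3.3, limma 3.58.1) by quasi-likelihood, with TMM scaling, filterByExpr by group, robust estimation and the terms group and heifer. This left 17241 features, and Benjamini-Hochberg adjustment ran within each contrast over them at a threshold of 0.05. Levels are CPM over TMM-scaled library sizes, averaged per heifer before a mean ± SD. The code was tested on simulated data. Libraries came from the same heifers: the median correlation of deviations from group means was 0.261 over 99 pairs within a heifer and -0.0635 over 396 pairs of different heifers and groups. Heifers are separate animals, and the heifer term takes up their differences in level. The p-values thus measure the spread left between libraries, and each heifer gave several of these. No pair of 66 in the same group looked like 1 library deposited again, with a chi-square per feature of at least 44.8. Each SD is over heifers or over the libraries of a group, and each SE comes from the edgeR fit. The floor of 3 counts covers counting error in the ampulla only.

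Alternatives were no heifer block, DESeq2 size factors, no filter, mitochondrial rows out of the scaling, each heifer left out, DESeq2 1.42.0, and for shares another denominator and all rows of a gene. Leaving out the 3 libraries with few features or transcripts of another site, or the 3 rich in ribosomal RNA, was added after seeing the data. Named are the mitochondrial rows, up to 12 called members each way with a log2 fold change of at least 1, subunits with tissue-type forms, up to 6 called members per other contrast, the member with the most counts per complex, each member of complexes II and III, and up to 4 genes per other list. NDUFAB1, ATP5IF1 and others outside that rule were named after their values were seen. Protein and promoter sequences were not used here, and 1 member that the rule names is not reported here.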

Additional observations from a re-analysis of the deposited data

Results flagged for a closer look

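In 350 sets of 4 or 5 libraries of a group, 43 values lay further from the rest than Dixon's 95% limit allows, where chance gives about 1 in 20. They gathered in a few libraries. In the contralateral upper horn of 11033 the highest values were 11093 CPM for ATP6, 5391 for COX2, 16364 for COX3, 10780.4 for CYTB, 6809.9 for ND1, 5424 for ND2, 4669 for ND3 and 7772 for ND4. The same library was highest for NDUFA3 at 249 CPM, ATP5F1A at 3.87 and NDUFA4L2 at 33.5. It had the lowest total of the 34 libraries, 11619486 counts.

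The contralateral ampulla of 11033 was highest in its group for ATP5PB at 1475 CPM, COX6A1 at 689, COX7A2 at 528, NDUFA4 at 475, ATP5MC3 at 379, UQCRFS1 at 322, UQCRQ at 271 and NDUFA2 at 178. The contralateral mid horn of 11033 was highest for ATP5MC3 at 305 CPM, ATP5MK at 257, UQCRQ at 179, NDUFA3 at 116 and ATP8 at 46.0.

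The uterine body of 10872 was highest for COX6A1 at 490.1 CPM, COX5B at 472, ATP5PB at 434, COX7A2L at 302, COX8A at 241, COX7A2 at 223, NDUFA4 at 213, ATP5F1E at 195, ATP5MK at 184 and UQCR11 at 103. It was lowest for ATP5F1C at 13.03 CPM. That is the heifer with no gap between mid horn and body in COX6A1 and ATP5MK.

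Other libraries had 1 or 2 such values. The ipsilateral ampulla of 11110 was highest for COX7B2 at 37.6 CPM and ND6 at 143, and that of 11070 for ATP5F1C at 22.4 and UQCRB at 4.07. The contralateral ampulla of 11070 was highest for ATP5F1A at 6.95 CPM. The contralateral mid horn of 11110 was highest for ATP5F1C at 31.0 CPM and COX7B2 at 5.51, and the body of 11070 was lowest for ND4L at 25.5 CPM.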

How the results depend on the processing

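The nuclear counts between ampulla and endometrium held within 1.5 times under each alternative, at 31 to 39 higher and 5 to 9 lower, and 40 to 50 of the 50 calls over both genomes were shared. The mitochondrial count moved: 9 were lower with no filter, 9 without the 3 libraries with few features or transcripts of another site, and 1 to 10 when 1 heifer was left out, against 4.

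Without the replicate block, 36 nuclear members were higher and 7 lower in the ampulla, and the calls between mid horn and body became 0 higher and 0 lower, against 3 and 2. Those became 15 higher with no filter (and 2 mitochondrial ones), 14 in DESeq2, 8 without the 3 libraries with few features or transcripts of another site, 0 and 0 without the 3 rich in ribosomal RNA, and 0 to 32 higher and 0 to 2 lower leaving out 1 heifer. Calls over all features between mid horn and body moved too, from 767 to 2057 of 38568 with no filter and 2714 in DESeq2. They were 1228 without the 3 libraries with few features or transcripts of another site. Without the block there was 1, without the 3 rich in ribosomal RNA 1, and leaving out 1 heifer 0 to 1835. With no filter 4 members were called between the sides of the ampulla, 1 between upper and mid horn, 1 between upper horn and body, and 4 over the uterine groups, against 0 each. The share of all features called in those fits is not given here, so these counts do not set the subunits apart.

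Over the 7 groups, mitochondrial calls went from 1 to 2 with DESeq2 size factors, 2 with mitochondrial rows out of the scaling, 13 with no filter, 7 without the libraries with few features or transcripts of another site, 3 without those rich in ribosomal RNA and 0 to 3 leaving out 1 heifer. Nuclear calls went from 44 to 28 to 40 leaving out 1 heifer. The cause was not tested.

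The estimates of 4 genes not called in the comparison of ampulla and endometrium changed sign. Leaving out 1 heifer, ATP6 ran from -0.608 (adjusted p = 0.0484 in edgeR, without 11070) to 0.0312 (without 10872), COX2 from -0.0127 (without 11070) to 0.516 (without 10872), ND3 from -0.202 (without 11070) to 0.355 (without 11033) and SDHC from -0.0696 (without 11033) to 0.149 (without 11070). ND3 was at -0.0475 without the 3 libraries with few features or transcripts of another site. SDHC was at -0.00826 with DESeq2 size factors, -0.00823 in DESeq2 and -0.00191 without the libraries rich in ribosomal RNA.

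With ribosomal and mitochondrial rows out of the denominator the mitochondrial share of the endometrium was 4.43% and the nuclear share of the ampulla 0.958%, and without the libraries rich in ribosomal RNA the former was 4.30%. The F tests were not run in DESeq2.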
